A study of Mus musculus with 2 samples.

Results

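Lipoprotein lipase, the scavenger receptor Cd36, the fatty acid binding proteins Fabp4 and Fabp5, lysosomal acid lipase (Lipa), the lipoprotein receptors Vldlr and Lrp1 and the scavenger receptors Scarb1 and Msr1 were taken by name from the gene symbols of single-cell RNA sequencing of brown adipose tissue (BAT) leukocytes. These 9 genes of 32285 annotated ones all had at least 1 UMI (unique molecular identifier, a tag that marks one captured RNA molecule) in each library. Live CD45+ cells were sorted from the BAT of male C57Bl/6 mice, which all carried AdipoQ-CreERT2 and ATGLfl/fl. The control library came from vehicle-treated mice, and the AdipoΔ/Δ library from mice given 200 uL of 10 mg/ml tamoxifen intra-peritoneally every other day for 1 week and then rested for 2 weeks. The labels give an age of 16 weeks, which the text of the study does not share. Cre was driven by the adiponectin promoter, which is active in adipocytes. The deletion of Pnpla2, the gene of ATGL, was thus not directed at the sorted cells. Over all kept cells Pnpla2 was at 37.1 CPM (UMIs of the gene per 1000000 UMIs of the cells) in the control and 42.2 CPM in the AdipoΔ/Δ library. These sums do not test for deletion, since the cell classes differed in size between the libraries. Tamoxifen itself and the loss of ATGL cannot be told apart in this design, the number of mice behind each library was not given in the sources used here, and with 1 library per group no difference between the groups could be tested. The 95% intervals below are exact and cover counting error only.

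Triglyceride reaches cells mostly inside lipoproteins. Lipoprotein lipase, secreted and held at the vessel wall or cell surface, frees fatty acids from these particles, Cd36 helps fatty acids across the membrane, and fatty acid binding proteins carry them within the cell. Receptors such as Lrp1 and Vldlr instead take up whole particles or remnants, scavenger receptors such as Msr1 bind modified lipoproteins, Scarb1 exchanges cholesterol with high-density lipoprotein, and lysosomal acid lipase splits the delivered lipid esters. In BAT, adipocytes and capillary endothelium are known for several of the same proteins.

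The genes lie on 5 chromosomes of mm10. Lpl is on chromosome 8 (68880491 to 68907448, plus strand), as is Msr1 (39581685 to 39642673, minus strand). Fabp5 (10012548 to 10016607, plus strand) ends 187481 bases before Fabp4 (10204088 to 10208576, minus strand) on chromosome 3. Cd36 and Scarb1 are on chromosome 5, Lipa and Vldlr on chromosome 19 and Lrp1 on chromosome 10. Of the 9 genes, 4 had a promoter entry in the RefSeq table (GRCm38.p6). The 250 bases before the annotated start are printed for Cd36 and Lipa, the members among these 4 that were at least 1.5-fold higher in AdipoΔ/Δ macrophage-like cells. Capitals mark the best match, on either strand, to a direct repeat of AGGTCA with 1 base between the copies, the kind of element that PPAR and RXR receptors bind; the Cd36 window, at chr5:17835897-17836146 on the minus strand, starts inside the gene and not at its outer end, and the Lipa window is at chr19:34527475-34527724 on the minus strand.
Cd36: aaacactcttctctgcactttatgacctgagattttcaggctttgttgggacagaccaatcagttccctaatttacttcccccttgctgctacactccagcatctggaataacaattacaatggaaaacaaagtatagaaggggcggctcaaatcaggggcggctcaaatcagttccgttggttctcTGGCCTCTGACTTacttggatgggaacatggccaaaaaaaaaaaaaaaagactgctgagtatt
Lipa: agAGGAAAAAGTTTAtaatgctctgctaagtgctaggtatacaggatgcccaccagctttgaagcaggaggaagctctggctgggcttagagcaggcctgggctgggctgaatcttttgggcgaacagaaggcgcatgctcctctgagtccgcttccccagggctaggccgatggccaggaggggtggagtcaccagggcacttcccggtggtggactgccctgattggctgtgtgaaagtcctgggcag
The Cd36 match, on the opposite strand 63 to 51 bases before the start, had 10 of the 12 letters, and 3.24% of 32851 promoters of the same length had a match as good. The Lipa match had 8 of 12 letters, a level reached by 74.5% of promoters. For the CLEAR element, the motif of lysosomal genes, neither window held more than 6 of 10 letters, which 97.0% of promoters reached. A match of letters is a description and not a binding site.

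After cells with under 200 detected genes or over 10% mitochondrial UMIs were left out, 2279 control and 2016 AdipoΔ/Δ cells remained, at a median of 3678 and 3942 UMIs. Clustering, with the 9 genes kept out of the features, gave 18 clusters. The clusters fell into 9 classes named "-like" from marker genes, and 3 clusters (100 control and 151 AdipoΔ/Δ cells) stayed unnamed. The libraries shared 4 barcodes. RNA of other cells differed between the libraries: the erythrocyte genes reached 1092 CPM in the kept control cells and 8.93 CPM in the AdipoΔ/Δ cells, and in the control B cell-like class alone 19117 CPM. In macrophage-like cells the adipocyte genes (7 of 9 with a UMI in the control, 8 of 9 in AdipoΔ/Δ) summed to 52.6 and 16.0 CPM, the endothelial genes to 10.5 and 7.57 CPM and the fibroblast genes to 8.77 and 15.4 CPM. Their part in the results was not tested.

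Macrophage-like cells, of which there were 147 in the control and 546 in the AdipoΔ/Δ library, had UMIs of all 10 macrophage markers in both. They held 70.6% of the control and 83.9% of the AdipoΔ/Δ UMIs of Lpl, and 42.2% and 81.8% of those of Cd36. For Lrp1, Scarb1 and Msr1 these shares were lower, from 4.19% (Scarb1) to 8.38% (Lrp1) in the control and from 31.8% (Scarb1) to 52.3% (Msr1) in AdipoΔ/Δ. All these shares also depend on the size of the class, which had 147 of 2279 control and 546 of 2016 AdipoΔ/Δ cells. Scarb1, for example, was at 35.1 and 42.0 CPM in the class, against 44.4 and 41.7 CPM over all kept cells. In AdipoΔ/Δ macrophage-like cells Lpl, Cd36 and Lipa were 2.67-fold, 2.58-fold and 2.12-fold higher than in control ones, Msr1 was 1.53-fold and Lrp1 1.41-fold higher, and the intervals of Fabp4 and Scarb1 spanned no difference. Lpl, Cd36, Lipa and Lrp1 were higher in AdipoΔ/Δ under each of 17 other ways of processing the cells, whereas Fabp4, Fabp5, Scarb1 and Msr1 were lower under some. Of the 8 members with at least 20 UMIs in this class, 4 were at least 1.5-fold higher and 0 lower. Over all 8953 genes with as many UMIs, 21.4% were at least 1.5-fold higher and 11.4% at least 1.5-fold lower. The median log2 ratio was 0.59 over the 8 members and 0.11 over all these genes. The class was not made of the same cells in both libraries. The cluster led by Gpnmb, with lipid-associated macrophage markers, had 13 control and 92 AdipoΔ/Δ cells, at median depths of 1348 and 12010.5 UMIs. Its summed UMIs were 30716 and 1203113, and it held 41 of 692 control and 6565 of 11561 AdipoΔ/Δ UMIs of Lpl in the class. Without this cluster 2 members were at least 1.5-fold higher, beside 19.5% of all 8268 genes with at least 20 UMIs. They were Lpl as before and Fabp5, which was not with the cluster included. The Lyz1 cluster (51 and 178 cells) scored below the other cells on the macrophage list as a whole (mean log2 fold of -0.76) and was named from the matrix macrophage list, with 7 of 10 macrophage markers detected. It held 552 of the 692 control and 3615 of the 11561 AdipoΔ/Δ UMIs of Lpl in the class. The control level, share and ratio of Lpl in the class thus rest largely on this cluster, and no setting without it was run. An unnamed cluster led by Gm26917 (42 and 74 cells, at 0.194 and 0.271 of the median depth of its library) also met the marker limits for macrophages. It was kept out because it was shallow with no macrophage marker among its leading genes, and Lpl was at 175 and 2232 CPM there. The Gdf3 cluster (26 and 147 cells) was shallow too, at 0.349 and 0.210 of the median depth. It had the markers Lgmn and Gdf3 among its leading genes and stayed in the class.

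**Figure D1:**
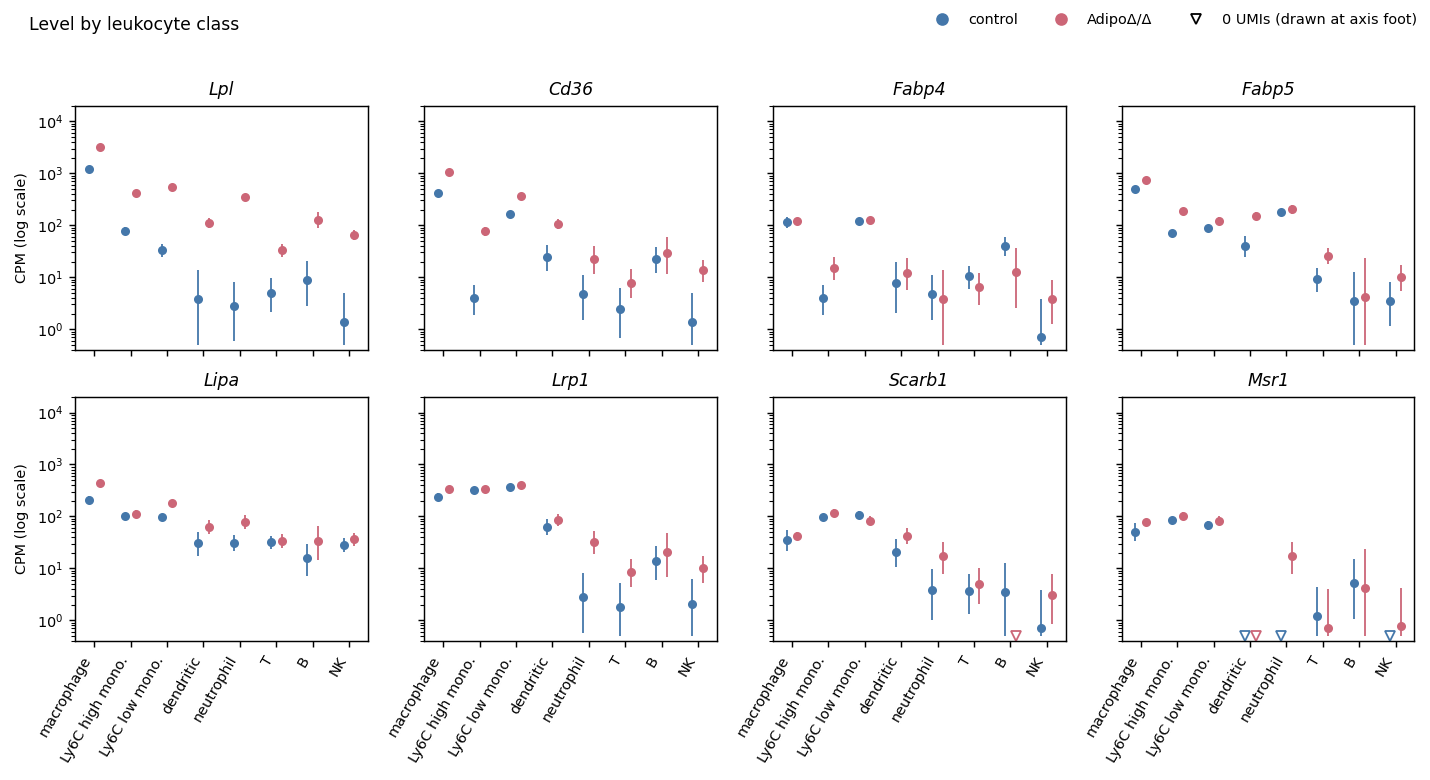
Level of 8 members (CPM, log axis) in 8 leukocyte classes of the control (blue) and AdipoΔ/Δ (red) library, with exact 95% Poisson intervals for counting error, cut at the axis foot; open triangles mark 0 UMIs. Lpl was highest in macrophage-like cells of both libraries (1214 and 3241 CPM), while Lrp1, Scarb1 and Msr1 were as high or higher in monocyte-like cells.

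Lpl was at 1214 CPM (1126 to 1308) in control macrophage-like cells and at 3241 CPM (3182 to 3300.3) in AdipoΔ/Δ ones, a ratio of 2.67 (2.47 to 2.89). On the log2 scale this was 1.42, and it was 2.46 at a mitochondrial limit of 2% and 0.81 without the Gpnmb cluster. A UMI of Lpl was found in 61.2% of the control and 84.6% of the AdipoΔ/Δ cells, and after thinning each cell to 1000 UMIs in 45.5% of 134 and 67.9% of 436 cells. NK cell-like cells, given for comparison, had a UMI in 0.962% and 13.4% of cells at higher median depths (6470.5 and 6486 UMIs against 2706 and 4306.5 in macrophage-like cells). Lpl was higher in AdipoΔ/Δ in each of the 4 macrophage-like clusters. In the cluster led by Lyz1, with markers of matrix macrophages, it went from 1966 to 2680.2 CPM (1.36-fold, 1.25 to 1.49). The cluster led by Folr2, with M2-like markers, went from 367 to 819 CPM (2.23-fold, 1.76 to 2.86). In the cluster named by Gdf3 the levels were 452 and 3614 CPM (ratio between 5.24 and 12.8). The control value rested on 22 UMIs in 5 of 26 cells, 10 of them in 1 cell. The members Fabp4 and Lpl came before Gdf3 among the leading genes of this cluster. The Gpnmb cluster reached 1335 and 5457 CPM (4.09-fold, 3.01 to 5.70), with 17 of the 41 control UMIs in 1 cell.

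**Figure D2:**
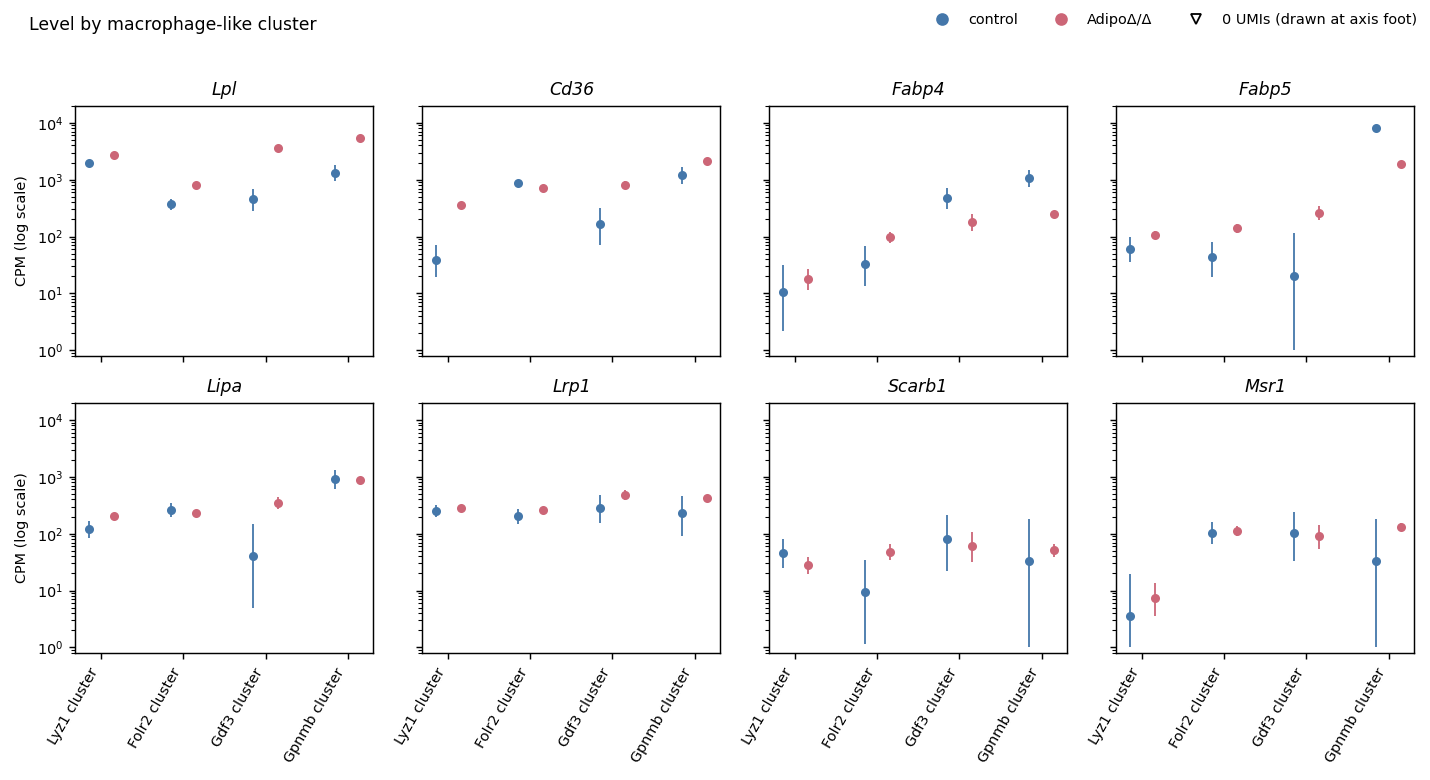
Level of 8 members (CPM, log axis) in the 4 macrophage-like clusters of the control (blue) and AdipoΔ/Δ (red) library, with exact 95% Poisson intervals cut at the axis foot. Clusters are named by their first leading gene that is not a member. Lpl was higher in AdipoΔ/Δ in all 4 clusters, Cd36 in 3, and Fabp4 and Fabp5 were lower in the Gpnmb cluster, where the control value rests on 13 cells.

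Outside macrophages, Lpl stood at 79.1 CPM in control and 413 CPM in AdipoΔ/Δ Ly6C high monocyte-like cells (5.22-fold, 4.42 to 6.18), and 1 AdipoΔ/Δ cell held 123 of the 488 UMIs. The complement genes C1qa, C1qb and C1qc, markers of macrophages, moved with it there, from 13.3 to 68.6 CPM. Ly6C low monocyte-like cells were at 33.0 and 538 CPM (16.3-fold, 12.3 to 21.9). In this class the C1q genes moved as well, from 35.5 to 1077 CPM. Most of that came from the cluster led by Aif1, where C1q genes went from 51.4 to 1923 CPM and Lpl from 40.7 to 832 CPM. Its class was less clear. It scored 1.27 on the Ly6C low list (mean log2 fold), against 3.66 in the other cluster of the class. It also had 8 of 10 macrophage markers (score of 0.09) and 6 of 8 Ly6C high monocyte markers (0.07) detected. The other cluster of the class, led by Cd300e, had C1q genes at 14.3 and 99.3 CPM and Lpl at 22.8 and 199 CPM (8.70-fold, 5.13 to 15.8). Neutrophil-like cells held 3 UMIs of Lpl in the control and 184 in AdipoΔ/Δ (2.81 and 349 CPM), 82 of the 184 in 1 cell and 202 CPM without it, beside C1q genes at 49.7 and 129 CPM. Dendritic cell-like cells were at 3.80 and 109 CPM, on 2 and 80 UMIs, and their C1q genes at 5.70 and 82.1 CPM.

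Lymphoid cells (T, B and NK cell-like together) were at 4.11 CPM in the control and 54.9 CPM in AdipoΔ/Δ, which was 0.338% (0.188 to 0.562) and 1.69% (1.44 to 1.98) of the macrophage-like level. By class the levels were 4.87 and 33.1 CPM in T cell-like, 8.73 and 129 CPM in B cell-like and 1.39 and 64.5 CPM in NK cell-like cells, with 20 of the 31 AdipoΔ/Δ UMIs of B cell-like cells in 1 cell. The C1q genes, the macrophage markers above, stood in the same cells at 0.270% (0.191 to 0.370) and 0.927% (0.769 to 1.11) of their macrophage-like level. The control values for Lpl and C1q thus lay within each other's intervals, and those of AdipoΔ/Δ did not, with 33 of 84 NK cell-like UMIs in 1 cell. Lymphoid levels of Lpl are given as values only. The part of free RNA in the lymphoid, neutrophil-like and monocyte-like values was not tested. Ordered by level, control Lpl ran from macrophage-like through Ly6C high monocyte-like and Ly6C low monocyte-like to B cell-like cells, each step beyond its counting interval, with the next step, to T cell-like cells, within it. In AdipoΔ/Δ the order was macrophage-like, Ly6C low monocyte-like and Ly6C high monocyte-like, and the latter did not differ from neutrophil-like cells beyond the interval (1.18-fold, 0.998 to 1.41).

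**Figure D3:**
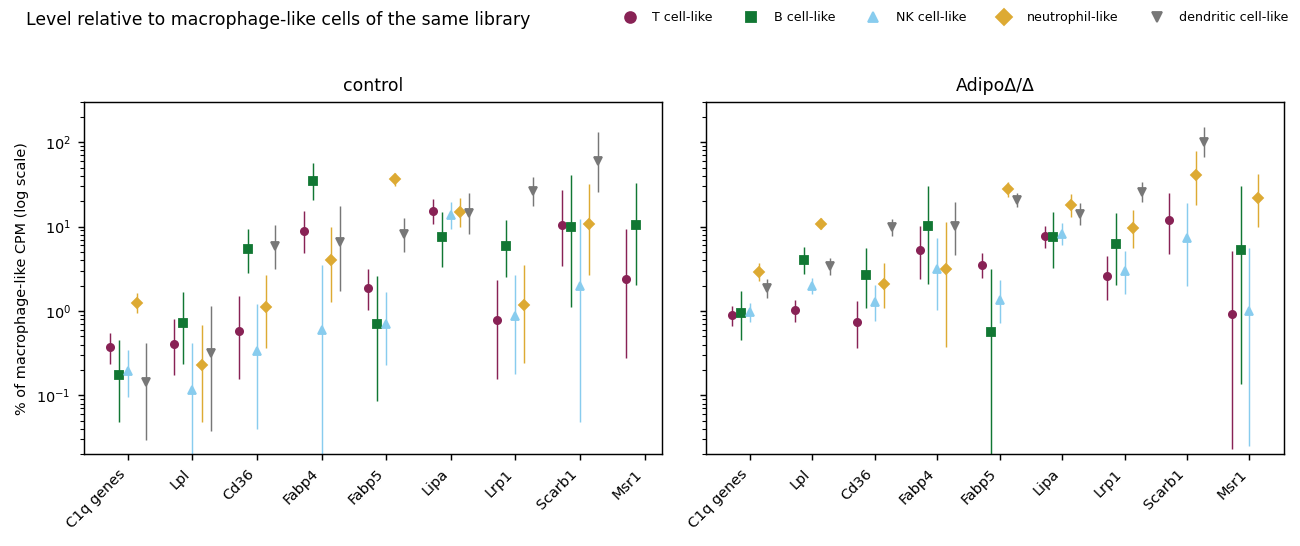
Level of each gene in T, B and NK cell-like, neutrophil-like and dendritic cell-like cells as a percentage of its level in macrophage-like cells of the same library (log axis), with 95% intervals for counting error cut at the axis foot; values at 0 are not drawn. The C1q genes, macrophage markers, lie under 1% in T, B and NK cell-like cells, whereas Lipa in all lymphoid classes and Fabp5 in neutrophil-like cells lie well above them.

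Cd36, the fatty acid translocase and scavenger receptor, was at 418 CPM (366 to 474) in control and 1078 CPM (1044 to 1113) in AdipoΔ/Δ macrophage-like cells, a ratio of 2.58 (2.26 to 2.95). A UMI was found in 44.9% and 60.3% of these cells (median depths of 2706 and 4306.5 UMIs), against 1.76% and 5.26% of lymphoid cells (3400.0 and 4832 UMIs). The clusters did not all have the same direction. In the Lyz1 cluster Cd36 went from 39.2 to 366 CPM (9.35-fold, 5.18 to 18.8), on 11 control UMIs, and in the Gdf3 cluster from 164 to 815 CPM (4.96-fold, 2.46 to 11.7), on 8. The Gpnmb cluster had 1205 and 2162 CPM (1.79-fold, 1.30 to 2.56), with 18 of the 37 control UMIs in 1 cell. The Folr2 cluster was slightly lower in AdipoΔ/Δ, at 868 and 722 CPM (0.831-fold, 0.703 to 0.987). The log2 ratio of the class was 1.37, and it was 0.50 without the Gpnmb cluster, 1.96 at a mitochondrial limit of 5% and 4.33 at one of 2%.

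Ly6C low monocyte-like cells came next for Cd36 in both libraries, at 162 and 371 CPM (2.29-fold, 1.96 to 2.68), and they held 47.0% of all control Cd36 UMIs, more than the 42.2% in macrophage-like cells. Within this class the ratio was 1.87 (1.57 to 2.22) in the Cd300e cluster and 4.26 (2.89 to 6.41) in the Aif1 cluster, a difference that was not tested. Ly6C high monocyte-like cells had 3.92 and 77.0 CPM (19.7-fold, 10.2 to 42.4), on 10 and 91 UMIs, 26 of the 91 in 1 cell. Lymphoid cells were at 1.25% and 1.14% of the macrophage-like level, on 19 and 36 UMIs. The interval overlapped that of the C1q genes in AdipoΔ/Δ (0.796 to 1.58) and lay above it in the control (0.737 to 1.99). Lpl and Cd36 were detected together in 13 of 134 control and 136 of 436 AdipoΔ/Δ macrophage-like cells thinned to 1000 UMIs. At that depth 3 or more of the 9 genes were found in 14.2% of the control and 33.0% of the AdipoΔ/Δ cells. In the Gpnmb cluster alone these were 9 of 12 and 74 of 91 cells, with a median of 3 genes per cell in both libraries.

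Fabp4, the binding protein best known from adipocytes, had no stable direction in macrophage-like cells. It was at 116 CPM (89.6 to 147) in control and 122 CPM (111 to 134) in AdipoΔ/Δ macrophage-like cells (1.05-fold, 0.811 to 1.39), and 1 control cell held 20 of 66 UMIs. Its log2 ratio was 0.07 on summed UMIs, 1.97 at a mitochondrial limit of 2%, 1.34 with at least 500 detected genes, -1.36 with the clusters weighted to the same shares and -1.56 as a mean over cells. Ly6C low monocyte-like cells stood at the same level, at 122 CPM (106 to 140) and 124 CPM (105 to 146), and were first in the order of classes in both libraries, within the interval of macrophage-like cells. The Cd300e cluster held 171 of the 200 control UMIs of this class. Across macrophage-like clusters Fabp4 was higher in AdipoΔ/Δ in the Folr2 cluster (33.4 and 97.7 CPM) and lower in the Gdf3 cluster (473 and 178 CPM) and the Gpnmb cluster (1074 and 246 CPM). In both of the latter, 1 control cell held 20 UMIs, out of 23 and 33. The Folr2 cluster had 7 control UMIs, and 1 AdipoΔ/Δ cell held 20 of its 80 (74.1 CPM without it). Fabp4 in control B cell-like cells was at 40.1 CPM, on 23 UMIs of which 17 lay in 1 cell, and at 10.5 CPM without that cell, and in AdipoΔ/Δ ones it had 3 UMIs.

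Fabp5, the binding protein of epidermis and macrophages, was at 493 CPM (437 to 554) in control and 733 CPM (705 to 761) in AdipoΔ/Δ macrophage-like cells (1.49-fold, 1.31 to 1.69). A single control cell held 141 of the 281 UMIs, and without it the control level was 249.5 CPM. In the control, 254 of the 281 UMIs lay in the 13 cells of the Gpnmb cluster, at 8269 CPM against 1915 CPM in AdipoΔ/Δ (0.232-fold, 0.203 to 0.265). In the Lyz1, Folr2 and Gdf3 clusters the ratio went the other way, at 1.76, 3.27 and 12.6, the last on 1 control UMI. In the Folr2 cluster 1 AdipoΔ/Δ cell held 48 of the 115 UMIs. The level without that cell was 83.0 CPM, against 42.9 CPM in the control, on 9 UMIs. In the Lyz1 cluster 1 AdipoΔ/Δ cell held 33 of 144 UMIs. The direction in the whole class therefore depended on how cells were weighted: the log2 ratio was 0.57 on summed UMIs, 1.49 without the top cell of each library, -1.02 as a mean over cells and -1.59 with the clusters weighted to the same shares in both libraries.

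Neutrophil-like cells were the second class for Fabp5, at 178 CPM (154 to 205) and 203 CPM (166 to 245) (1.14-fold, 0.890 to 1.45), and a UMI was found in 33.1% and 30.1% of them. In B cell-like cells the share was 0.763% and 1.09%, at median depths of 1803 and 2101 UMIs against 2968.5 and 2720 in neutrophil-like cells. Ly6C high monocyte-like cells were at 70.1 and 190 CPM (2.70-fold, 2.21 to 3.31), with 43 of 224 AdipoΔ/Δ UMIs in 1 cell, and dendritic cell-like cells at 39.9 and 152 CPM (3.80-fold, 2.37 to 6.39), where 1 control cell held 15 of 21 UMIs and the control level without it was 11.6 CPM. Reads of Fabp5 may be shared with near-identical copies in the genome, which the counting used here could divide, so its level is uncertain to that extent.

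Lipa was found in lymphoid cells as well as in myeloid ones. Macrophage-like cells had 209 CPM (173 to 250) and 442 CPM (421 to 465), a ratio of 2.12 (1.76 to 2.57). Its log2 ratio of 1.08 became 2.04 at a mitochondrial limit of 2% and 0.43 without the Gpnmb cluster. By cluster it was higher in AdipoΔ/Δ in the Lyz1 cluster (121 and 208 CPM, 1.71-fold, 1.20 to 2.52), while the Folr2 cluster (262 and 229.5 CPM) and the Gpnmb cluster (912 and 866 CPM) gave intervals that spanned no difference. The Gdf3 cluster had 2 control UMIs. Ly6C high monocyte-like cells stood at 101 and 111 CPM, Ly6C low ones at 95.4 and 178 CPM (1.86-fold, 1.51 to 2.31), dendritic cell-like cells at 30.4 and 62.9 CPM and neutrophil-like cells at 31.0 and 79.6 CPM (2.57-fold, 1.59 to 4.19). Lymphoid cells were at 27.9 CPM (22.8 to 33.9) and 34.8 CPM (28.3 to 42.2), on 102 UMIs in each library, which is 13.4% and 7.86% of the macrophage-like level where the C1q genes were at 0.270% and 0.927%.

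**Figure D4:**
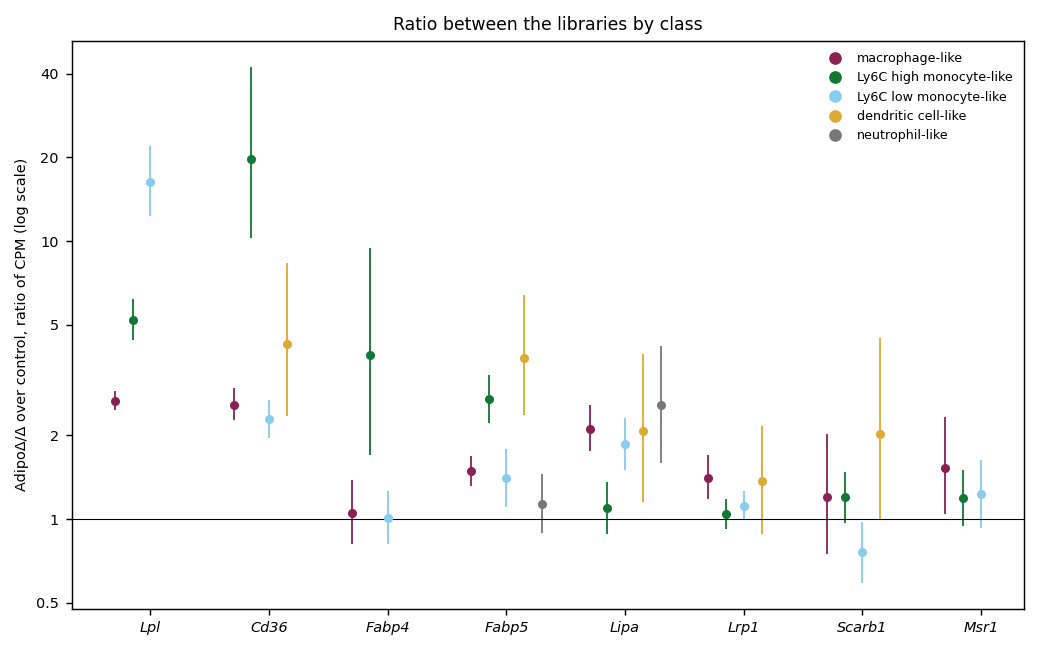
Ratio of the AdipoΔ/Δ over the control level of 8 members (log axis) in 5 classes, with exact 95% conditional binomial intervals for counting error; points need at least 20 UMIs over both libraries and over 3 in the control, so Lpl in dendritic cell-like and neutrophil-like cells (2 and 3 control UMIs) and Lrp1 in neutrophil-like cells (3) are not drawn. Lpl and Cd36 lie above 1 in each class drawn, while the points drawn for Lrp1, Scarb1 and Msr1 lie between 0.762 and 2.03.

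The receptors for whole particles gave another picture. Lrp1, a large receptor for remnants and many other ligands, was at 237 CPM (199 to 280) and 334 CPM (315 to 353) in macrophage-like cells (1.41-fold, 1.18 to 1.70). Its level was higher in Ly6C low monocyte-like cells, at 363 and 406 CPM (1.12-fold, 0.990 to 1.26), which led the order of classes in both libraries beyond the counting interval. Ly6C high monocyte-like cells were at 317 and 330.2 CPM (1.04-fold, 0.922 to 1.18). Neutrophil-like cells held 3 and 17 UMIs (11.5-fold, 3.31 to 61.0), with 9 of the 17 in 1 cell. Without that cell the AdipoΔ/Δ level was 15.8 CPM, against 2.81 CPM in the control. None of the 4 macrophage-like clusters alone gave an interval for Lrp1 that excluded a ratio of 1. Lymphoid levels were 1.62% and 3.06% of the macrophage-like ones, on 14 and 30 UMIs.

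Scarb1, the receptor for high-density lipoprotein, was highest in monocyte-like cells. It was at 98.0 and 118 CPM in Ly6C high cells (1.20-fold, 0.969 to 1.48) and at 109 and 83.0 CPM in Ly6C low cells (0.762-fold, 0.590 to 0.980), against 35.1 and 42.0 CPM in macrophage-like cells (1.20-fold, 0.749 to 2.02), where the control value rests on 20 UMIs and the log2 ratio of 0.26 became -0.90 with at least 500 detected genes. The lower level in Ly6C low cells came with the Aif1 cluster (0.546-fold, 0.381 to 0.773), whereas the Cd300e cluster was at 1.22-fold (0.820 to 1.81).

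Msr1, scavenger receptor A, was likewise found at 85.8 and 102 CPM in Ly6C high monocyte-like cells and at 67.3 and 83.0 CPM in Ly6C low ones, against 50.9 CPM (34.1 to 73.1) and 77.9 CPM (69.0 to 87.6) in macrophage-like cells. Of the 278 AdipoΔ/Δ macrophage-like UMIs, 158 were in the Gpnmb cluster, where the control had 1 UMI, and without that cluster the log2 ratio of the class was -0.033. Msr1 had 0 UMIs in 85 control and 111 AdipoΔ/Δ dendritic cell-like cells, which allows up to 5.70 and 4.10 CPM at 3 UMIs. Vldlr was close to undetected in these leukocytes, with 1 UMI in the control and 5 in AdipoΔ/Δ over all kept cells and 0 and 2 in macrophage-like cells, so no ratio is given. A count of 0 in control macrophage-like cells allows up to 5.26 CPM.

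Over the other classes, the members at least 1.5-fold higher in AdipoΔ/Δ were read against all genes with at least 20 UMIs there. In Ly6C high monocyte-like cells 4 of 8 members (Lpl, Cd36, Fabp4 and Fabp5) were higher, beside 11.5% of genes. In Ly6C low monocyte-like cells 3 of 8 (Lpl, Cd36 and Lipa) were higher, beside 14.0% of genes. Dendritic cell-like cells had 5 of 6 higher, with Lrp1 the exception, beside 18.7% of genes, and neutrophil-like cells 3 of 4 (Lpl, Lipa and Lrp1), beside 27.3% of genes. Lrp1 just reached the limit of 20 UMIs in neutrophil-like cells, on 3 and 17 UMIs, 9 of the 17 in 1 cell. In each of these classes 0 members were at least 1.5-fold lower, beside 5.84%, 5.96%, 7.98% and 5.28% of genes in the same order.

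Other genes of lipid uptake in macrophage-like cells were counted in the same way. Over all genes with at least 20 UMIs in this class, 21.4% were at least 1.5-fold higher and 11.4% lower. Among 11 further lipoprotein and scavenger receptors with at least 20 UMIs, 3 were higher, 1 lower and 7 within 1.5-fold, with a median log2 ratio of 0.25. Among the most abundant were the scavenger receptor Stab1 (161 and 153 CPM) and Cxcl16, a chemokine that also acts as a scavenger receptor (35.1 and 76.5 CPM, 2.18-fold, 1.38 to 3.63). Of 6 factors that mature, assist or inhibit lipases, 1 was higher and 1 lower. Apoc2, the activator of lipoprotein lipase, was at 54.4 and 20.2 CPM (0.371-fold, 0.240 to 0.585). Furin, Sel1l and Lrpap1 stayed within 1.5-fold. Angptl4, a secreted inhibitor of lipoprotein lipase singled out after its values were seen, had 0 control and 60 AdipoΔ/Δ UMIs.

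Of 10 genes of fatty acid transport, binding and activation, 3 were higher and 0 lower. The shares over all genes, 21.4% higher and 11.4% lower, stand beside the counts of this paragraph too. Slc27a1, a fatty acid transport protein, was at 14.0 and 44.0 CPM (3.13-fold, 1.55 to 7.39), on 8 control UMIs, while the acyl-CoA binding protein Dbi (563 and 726 CPM), Acbd3 and the acyl-CoA synthetase Acsl5 stayed within 1.5-fold. Among 13 genes of lysosomal lipid release 5 were higher and 0 lower, including the saposin precursor Psap (2757 and 4192 CPM, 1.52-fold, 1.44 to 1.60), with the cholesterol carrier Npc2 (742 and 818 CPM) and Lamp1 (590 and 791 CPM) within 1.5-fold. Of 11 transcription factors of lipid uptake 2 were higher and 0 lower. These were Pparg (8.77 and 40.9 CPM, 4.66-fold, 1.95 to 14.6) and Nr1h3, the gene of LXR alpha (12.3 and 42.0 CPM, 3.42-fold, 1.62 to 8.66), on 5 and 7 control UMIs. Srebf2, Tfe3 and Mitf had ratios of 1.08, 1.01 and 0.971.

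The genes whose levels varied most like each member over 32 profiles of cluster and library were named as a description only, since the profiles share libraries and depth. For Lpl they were Myof (r = 0.91), Daglb and Plekhm2. The genes most like Cd36 were Lgmn (r = 0.93), Ctsb and Abhd12, and Ctsb was also among those of Lipa, with Tnfrsf11a (r = 0.89) and BC005537. Fabp4 varied most like Itgb5 (r = 0.88), Tcf7l2 and Lilra5, and Fabp5 like Cstb (r = 0.88), Ftl1 and Atp6v0c. Lrp1 had Plxnb2 (r = 0.97), Psap and Pid1, and Plxnb2 was also among those of Scarb1, after Stom (r = 0.92) and Tmem51. Msr1 had Itgb5 (r = 0.92), Ifi207 and Cln8. Those of Vldlr (Col3a1, Dcn and Gtpbp8) rest on its 6 UMIs.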

How the data were processed

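The authors deposited filtered matrices of UMI counts per gene and cell for both libraries, made with Cell Ranger 4.0.0 (file header) from 10x Chromium 3′ libraries on mm10. The submitters' notes also name Seurat. Libraries held 2597 (control) and 2381 (AdipoΔ/Δ) barcodes with 11327187 and 12028844 UMIs. Barcodes were left out below 200 detected genes or above 10% mitochondrial UMIs, which kept 87.8% and 84.7%. The limit of 2% in the methods of the study, as computed here, would have kept 51.4% and 37.7% of barcodes on its own. The study reports more cells than that in each library after all its filters, and the cause of this difference was not tested. Seurat 5.3.0 in R 4.3.3 was run with SCTransform, anchor integration on 1974 features (2000 less the members and lists), 20 principal components and a resolution of 1. Doublets were left in, and Scrublet in scanpy 1.11.5 called 8 cells in each library.

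A cluster was named from marker lists when at least 3 markers were detected in 10% of its cells and its score was at least 0.5, limits that were set after the data were seen. A macrophage subset list with 3 markers among the 10 leading genes could stand in for the macrophage list. Clusters led by markers of another type or of dividing cells, or shallow ones with no marker of their own among the leading genes, stayed unnamed. Clusters with the same name were summed. Levels (CPM) are a gene's summed UMIs per 1000000 UMIs of the class, with exact Poisson intervals. Shares of cells have exact Clopper-Pearson intervals and ratios exact conditional binomial ones, all at 95%. A gene at 0 was given a limit of 3 UMIs. Likeness is Pearson's r of log2(CPM + 10) over clusters with at least 20 cells in a library or class. The members and lists were chosen with earlier results of these data known. Besides the members, the genes named are the 3 with the most UMIs of each pathway list, every pathway gene at least 2-fold apart with at least 100 UMIs, the 3 genes most like each member, and leading genes of clusters. Angptl4 was named outside this rule, after its values were seen. One gene that this rule names is not reported here. Scripts were tested on simulated data.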

Additional observations from a re-analysis of the deposited data

Results flagged for a closer look

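The ratio of AdipoΔ/Δ over control of 3 genes lay above 1 in some and below 1 in other macrophage-like clusters with counting intervals that excluded 1 on each side, and these differences between clusters were not tested. Cd36 was at a ratio of 0.831 in the Folr2 cluster and of 9.35, 4.96 and 1.79 in the Lyz1, Gdf3 and Gpnmb clusters. Fabp4 was at 0.377 in the Gdf3 cluster and 0.229 in the Gpnmb cluster, where 1 control cell held 20 of 23 and 20 of 33 UMIs, and at 2.93 in the Folr2 cluster. The Folr2 ratio of Fabp4 rested on 7 control UMIs, and 1 AdipoΔ/Δ cell held 20 of 80 UMIs. Fabp5 was at 0.232 in the Gpnmb cluster, where 1 control cell held 141 of 254 UMIs, and at 1.76, 3.27 and 12.6 in the Lyz1, Folr2 and Gdf3 clusters. In the Folr2 cluster 1 AdipoΔ/Δ cell held 48 of 115 UMIs of Fabp5, and the Gdf3 ratio rested on 1 control UMI.

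The barcodes left out by the limits on detected genes and mitochondrial UMIs (318 in the control and 365 in AdipoΔ/Δ) held some members at levels whose counting interval lay above that of the kept cells. In the control these were Lpl at 132 CPM against 91.1 CPM, Cd36 at 171 CPM against 52.4 CPM and Fabp4 at 484 CPM against 31.0 CPM. In AdipoΔ/Δ they were Fabp4 at 199 CPM against 59.2 CPM and Lrp1 at 393 CPM against 208 CPM. The same barcodes held the adipocyte genes at 157 and 60.4 CPM, against 14.2 and 9.90 CPM in kept cells, and their part in these levels was not tested.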

How the results depend on the processing

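With 17 other settings, 3 of them chosen after the data were seen (without the top cell of each gene, and without the lowest-depth or the Gpnmb cluster), the log2 ratio of AdipoΔ/Δ over control in macrophage-like cells ranged from 0.81 to 2.46 for Lpl (1.42 as reported), from 0.50 to 4.33 for Cd36 (1.37), from 0.43 to 2.04 for Lipa (1.08) and from 0.28 to 0.80 for Lrp1 (0.49). It ranged from -1.56 to 1.97 for Fabp4 (0.07), from -1.59 to 2.05 for Fabp5 (0.57), from -0.12 to 0.86 for Msr1 (0.61) and from -0.90 to 0.42 for Scarb1 (0.26). Values that moved beyond the counting interval or turned are given here, and the cause was not tested. With at least 500 detected genes it was 2.06 for Lpl, 2.03 for Cd36, 1.34 for Fabp4, 1.14 for Fabp5, 1.49 for Lipa and -0.90 for Scarb1. A mitochondrial limit of 2% gave 2.46 for Lpl, 4.33 for Cd36, 1.97 for Fabp4, 2.05 for Fabp5, 2.04 for Lipa and -0.86 for Scarb1, and one of 5% gave 1.96 for Cd36. A resolution of 2.0 gave 2.04 for Lpl, 1.96 for Cd36, 0.73 for Fabp4, 1.11 for Fabp5, 1.46 for Lipa and -0.86 for Scarb1. Thinning cells to 1000 UMIs gave 1.26 for Lpl, 1.18 for Cd36, -0.68 for Fabp5, 0.49 for Lipa, 0.80 for Lrp1 and -0.32 for Scarb1. Weighting the clusters to the same shares gave 0.85 for Cd36, -1.36 for Fabp4, -1.59 for Fabp5 and 0.43 for Lipa. With this weighting 2 members in place of 4 were at least 1.5-fold higher, beside 26.1% of all genes with at least 20 UMIs. The mean over cells gave 0.79 for Cd36, -1.56 for Fabp4, -1.02 for Fabp5, 0.61 for Lipa and -0.12 for Msr1. Without the Gpnmb cluster the values were 0.81 for Lpl, 0.50 for Cd36, -0.058 for Fabp4, 1.39 for Fabp5, 0.43 for Lipa and -0.033 for Msr1. There 2 members were at least 1.5-fold higher, beside 19.5% of all genes with at least 20 UMIs. Without cells holding a UMI of adipocyte or endothelial genes they were 1.70 for Cd36, 0.55 for Fabp4 and 0.38 for Fabp5. Merging the libraries without integration gave 1.20 for Lpl, 0.52 for Fabp4 and 0.39 for Fabp5. Fabp4 was at 0.56 with 30 principal components, 0.56 with the members and lists kept among the features, 0.52 without the lowest-depth cluster and 0.49 without its top cell, and Fabp5 at 1.49 without its top cell. The number of macrophage-like cells, 693 as reported, fell to 274 and 378 at mitochondrial limits of 2% and 5%. Of the 27 genes named as most like a member, 11 were named again with 30 principal components, 11 with at least 500 genes, 8 after thinning, 12 after merging, 10 and 14 at the limits of 2% and 5%, 17 at a resolution of 2.0 and 17 without the lowest-depth cluster. No ratio was computed for Vldlr, whose control count in the class was 0. No paired analysis was possible because each group has 1 library. Control macrophage-like cells, with 569831 UMIs, set the precision of these ratios.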
